A study of Mus musculus with 8 samples.

Results

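Conjugation enzymes were followed in primary mouse hepatocytes exposed to metformin. The set held the UDP-glucuronosyltransferases (UGT), sulfotransferases (SULT), cytosolic and microsomal glutathione S-transferases (GST and MGST) and carboxylesterases (CES), together with the flavin-containing monooxygenases (FMO) and the epoxide hydrolases Ephx1 and Ephx2. The rule for members used gene symbols and was set with earlier results of these data known. It gave 79 of the 15301 named probes and 57 of the 10944 genes measured. They were 10 UGT, 9 SULT, 20 GST, 3 MGST, 9 CES, 4 FMO and 2 epoxide hydrolase genes. The treated group was 4 wells of hepatocytes, freshly isolated with collagenase from male C57Bl6/J mice, given 500 µM metformin, a biguanide that lowers blood glucose. The reference was 4 control wells of the same strain, sex and isolation method, and both groups are labelled 24 h. Total RNA of each well was read on 1 Illumina bead array, and the deposited values are log2 intensities. No label ties a well to its own animal or isolation, so the p-values reflect the spread among these 8 wells alone, and that spread may be technical.

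Conjugation is the step of drug and hormone metabolism that attaches a polar group to a molecule so that it can be excreted. UGT enzymes transfer glucuronic acid from UDP-glucuronate, SULT enzymes transfer sulfate from the donor PAPS, and GST enzymes transfer the tripeptide glutathione to reactive electrophiles. Carboxylesterases cleave esters and, in liver, also stored triglyceride, while FMO enzymes oxidise nitrogen and sulfur and epoxide hydrolases open epoxides. Hepatocytes are the main site of most of these reactions, and several of the genes are known targets of the xenobiotic receptors and of NRF2, the transcription factor of the electrophile response.

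The promoters of 3 members are printed, whose results are described below. Whether their changes under metformin differ from one another was not tested. Sult1e1 fell, and its neighbour on the chromosome Sult1d1 did not pass the test. Gsta3 had the largest positive change of the 57 genes but did not pass either. Each sequence is the 250 bases before the annotated start in RefSeq, build GRCm38.p6, written 5′ to 3′ on the gene's own strand. Sult1e1 lies at chr5:87591612-87591861 on the minus strand, Sult1d1 at chr5:87569007-87569256 on the minus strand and Gsta3 at chr1:21240335-21240584 on the plus strand. Capitals mark matches, on either strand, to the antioxidant response element core TGACNNNGC, the xenobiotic response element core GCGTG or the HNF1 motif GTTAAT, none of which overlapped here.
Sult1e1: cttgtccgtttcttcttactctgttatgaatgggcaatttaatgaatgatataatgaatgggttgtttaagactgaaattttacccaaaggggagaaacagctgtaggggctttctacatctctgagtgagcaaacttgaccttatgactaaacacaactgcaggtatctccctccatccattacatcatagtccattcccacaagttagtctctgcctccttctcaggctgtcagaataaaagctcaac
Sult1d1: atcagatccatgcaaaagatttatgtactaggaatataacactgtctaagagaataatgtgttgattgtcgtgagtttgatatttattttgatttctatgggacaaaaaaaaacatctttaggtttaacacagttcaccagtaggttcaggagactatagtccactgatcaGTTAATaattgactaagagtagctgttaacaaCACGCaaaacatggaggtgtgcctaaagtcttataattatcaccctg
Gsta3: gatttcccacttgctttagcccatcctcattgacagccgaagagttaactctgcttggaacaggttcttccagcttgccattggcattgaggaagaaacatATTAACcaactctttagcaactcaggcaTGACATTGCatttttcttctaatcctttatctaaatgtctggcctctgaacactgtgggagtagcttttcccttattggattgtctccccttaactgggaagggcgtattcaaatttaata
The Sult1e1 window held none of the 3 motifs, the Sult1d1 window held 1 HNF1 motif and 1 xenobiotic core, and the Gsta3 window held 1 HNF1 motif and 1 antioxidant core. A promoter was found for 49 of the 57 genes, 62 in all. The antioxidant core was in 4.84% of the member promoters and in 10.2% of all 32851 promoters of the table. The xenobiotic core was in 16.1% of the member promoters and in 28.2% of all, and the HNF1 motif in 12.9% and 6.43%. The genes with the antioxidant core were Gsta3, Gstm5 and Mgst1. A match describes letters in this window only.

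Every array had a median of 6.48 log2 units, and correlations across genes were 0.961 to 0.983 between metformin and control arrays. Of 12 measured hepatocyte markers, the transferrin, transthyretin and apolipoprotein A-II genes were among the brightest of all genes, but the Alb probe averaged only 6.05 ± 0.35 log2 units with metformin and 5.65 ± 0.29 in controls (SD, n = 4 each). Fgb and Cps1 were also below the median of all genes in mean level, at the percentiles 17.4 and 45. The 12 hepatocyte markers had a median change of 0.045 log2 units, with 0 past the threshold in limma and 1 at an unadjusted p under 0.05. Markers of other liver cells were also seen. The summed linear intensity of 9 sinusoidal endothelial markers ran from 593 to 2130 in metformin arrays and from 611 to 1286 in control arrays, with a median change of 0.49 log2 units. That of 6 macrophage markers ran from 676 to 1908 with metformin and from 907 to 2724 in controls. In limma 0 genes of either list passed the threshold, and 2 and 0 reached an unadjusted p under 0.05, where 23.8% of all genes did. With the replicate block described below, 3 endothelial markers were higher and 1 macrophage marker lower, where 4.41% and 4.08% of all genes were. The 4 cholangiocyte markers summed to between 600 and 1120 with metformin and between 557 and 988 in controls. Their median change was 0.67 log2 units. In limma 1 of the 4 passed the threshold and 2 reached an unadjusted p under 0.05. Tspan8 fell by 2.09 ± 0.41 (SE; limma adjusted p = 0.0226, and 0.00477 with the block), where 3.44% of all genes fell in limma. It passed in 5 of the 8 fits without 1 array. The other 3 had positive changes, Sox9 of 0.42 ± 0.14 (limma adjusted p = 0.106, groups not overlapping), Krt7 of 1.11 ± 0.50 (0.211) and Krt19 of 0.91 ± 0.46 (0.261, and 0.0186 with the block). The 8 stellate markers summed to between 3416 and 6298 with metformin and between 4119 and 7510 in controls, with 0 past the threshold in limma and 1 at an unadjusted p under 0.05. Both lymphocyte markers measured lay below the lower quartile of all genes. Their part in the results was not tested, and in these bulk samples fewer cells of a type and less RNA per cell cannot be told apart.

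The comparison asks which of these enzymes differ after a day of metformin. The brightest probe stood for each gene in a limma fit, and p-values were adjusted over all 10944 genes by the Benjamini-Hochberg method with a threshold of 0.05. Wells with the same replicate number deviated together across genes (correlations of 0.320, 0.284, 0.149 and 0.228), so the fit was repeated with the number as a block. Same-numbered wells are called pairs here. The main fit, and every fit without 1 array, did not use this pairing. Of the 57 genes, 2 fell and 0 rose without the block. Both were sulfotransferases, the estrogen sulfotransferase Sult1e1 and the brain-enriched Sult4a1. Over all genes 3.44% fell and 3.32% rose, 6.76% together. With the block the same 2 fell and 6 rose, where 4.08% and 4.41% of all genes did, 8.49% together. The 6 were Ugt2b36, Gstm4, Ces1b, Ces1d, Ces2e and Fmo1, with changes of 0.65 to 0.80 log2 units.

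Most other members did not pass in either fit. Without the block, 11 of the 57 genes were higher and 2 lower at an unadjusted p under 0.05, where 12.7% and 11.1% of all genes were. The median change of the members was 0.14 log2 units, and of all genes 0.010. Over the fits without 1 array that of the members ran from 0.10 to 0.23 (0.23 without metformin replicate 4 and 0.22 without control replicate 1). Positive changes were seen in 39 of the 57 (68.4%), or 38 with Ces2g at its dimmer probe, against 51.2% of all genes. In 15 members all 4 pairs were higher with metformin and in 4 all 4 pairs were lower, where 18.2% and 15.6% of all genes were. For 2 members, Ces1b and Ugt3a2, the lowest metformin array was above the highest control array, as for 7.70% of all genes. For 2, Sult1e1 and Sult4a1, the highest metformin array was below the lowest control array, as for 7.57% of all genes.

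**Figure D1:**
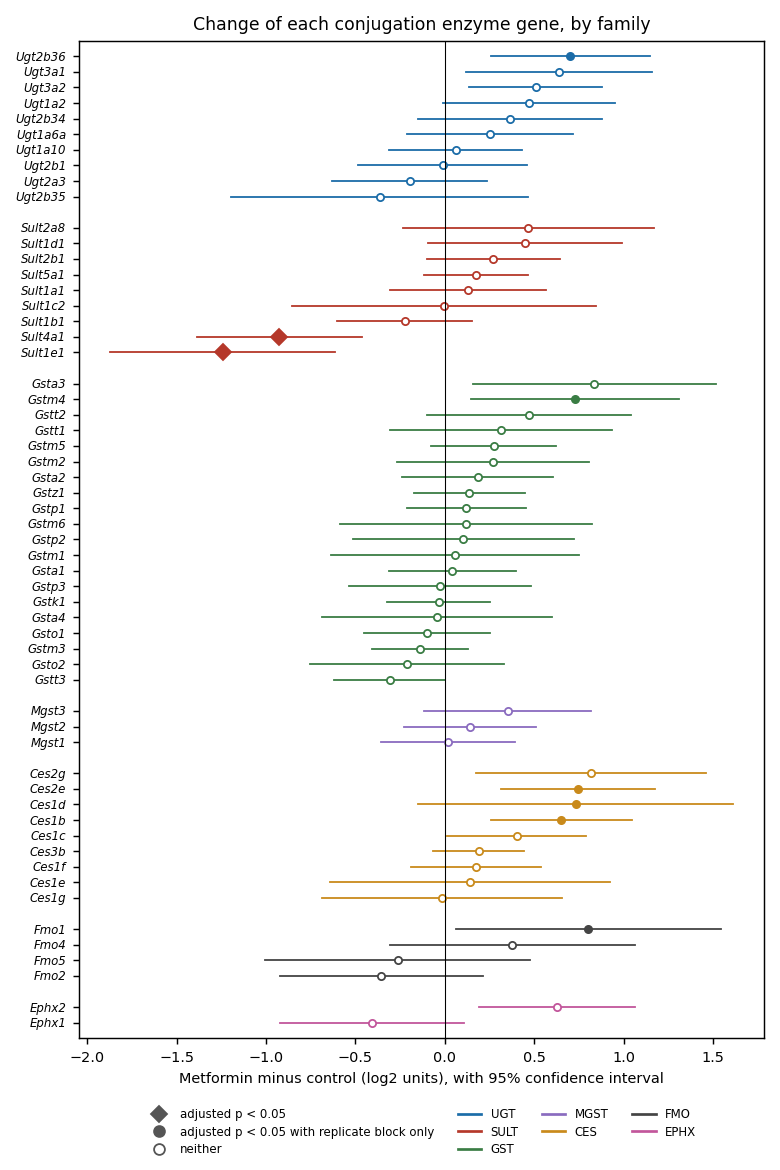
Metformin minus control in log2 units for the 57 genes, grouped by family and coloured by it, each with its 95% confidence interval from limma (n = 4 per group). Diamonds are the 2 genes past the threshold, filled circles the 6 that passed with the replicate block only, and open circles the other genes. The 2 diamonds are the only points below -0.5, and the filled circles lie between 0.65 and 0.80.

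Sult1e1, which inactivates estrogens by sulfation, had the largest change of the set. Its intensity was 5.72, 4.72, 5.09 and 4.73 log2 units in metformin replicates 1 to 4, against 6.95, 5.99, 6.40 and 5.89 in control replicates 1 to 4. Every metformin array lay below every control array, and replicate 1 was the highest of its group on both sides. The pair differences were -1.22, -1.27, -1.31 and -1.16, so the fall was nearly equal in the 4 pairs. The change was -1.24 ± 0.28 log2 units (SE, n = 4 per group), with an adjusted p of 0.0349 in limma and 0.00611 with the block. Controls were 2.37-fold higher. Leaving out 1 array raised the limma adjusted p to 0.0953 without metformin replicate 2, 0.0950 without metformin replicate 3, 0.0684 without metformin replicate 4, 0.0592 without control replicate 2 and 0.0871 without control replicate 3. The gene passed in the other 3 of these 8 fits, none of which used the block.

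Sult4a1 is a sulfotransferase best known from brain. It had 5.22, 4.76, 4.54 and 5.0 log2 units in metformin replicates 1 to 4, against 5.55, 5.90, 5.51 and 6.28 in control replicates 1 to 4. The groups did not overlap, and the pair differences ran from -1.28 to -0.32. The change was -0.93 ± 0.21 (SE, n = 4 per group; limma adjusted p = 0.0323, and 0.0249 with the block). The call was lost without metformin replicate 2 (adjusted p = 0.0891), metformin replicate 3 (0.0970), control replicate 2 (0.0800), control replicate 3 (0.0536) or control replicate 4 (0.0663). Both sulfotransferase probes were dim, at the percentiles 36.3 for Sult1e1 and 31.9 for Sult4a1 of mean level over all genes, and the metformin values stood near the lower end of the scale at 4.16. Values there can understate a change. Detection p-values were left out, so whether these probes rose above background was not tested.

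**Figure D2:**
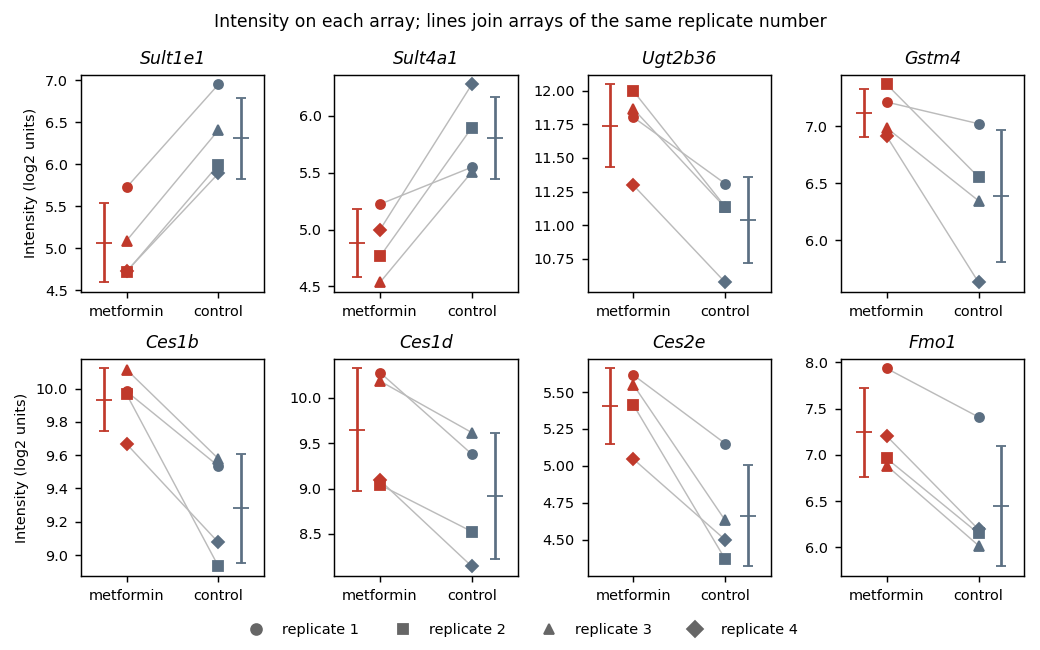
Log2 intensity on each array for the 2 genes past the threshold and the 6 genes past it with the replicate block only, with metformin arrays left in red and control arrays right in grey-blue. Lines join arrays of 1 replicate number and bars show mean ± SD (n = 4). All 4 lines run upward to the control for Sult1e1 and Sult4a1, and downward for the other 6 genes.

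The other 7 sulfotransferases did not pass in either fit. Sult1d1, which in mouse sulfates catecholamines, lies directly beside Sult1e1, with 0 protein-coding genes between them. Its values were 7.75, 7.45, 7.31 and 6.94 log2 units in metformin replicates 1 to 4, against 7.34, 6.27, 7.06 and 6.99 in control replicates 1 to 4, a change of 0.45 ± 0.24 (SE; limma adjusted p = 0.302). The groups overlapped. Sult1b1, the next gene in the same row, was dim, at the percentile 5.80 of all genes, and its change was -0.22 ± 0.17. Sult1a1, a phenol sulfotransferase and the brightest of the family, averaged 7.69 ± 0.28 with metformin and 7.56 ± 0.33 in controls (SD, n = 4 each), with a 95% interval of the change from -0.30 to 0.56. Sult2a8, which sulfates bile acids in mouse liver, had a change of 0.47 ± 0.31. Over the 9 genes the median change was 0.13. Over the fits without 1 array it ran from 0.093 to 0.20, with 0.20 without control replicate 1 or 3. Besides Sult1b1, probes of Sult2b1 and Sult5a1 had mean levels below the lower quartile of all genes.

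Among the glucuronosyltransferases, Ugt2b36 was the brightest, at the percentile 96.1 of all genes. It had 11.80, 12.00, 11.86 and 11.30 log2 units in metformin replicates 1 to 4, against 11.31, 11.14, 11.13 and 10.57 in control replicates 1 to 4. Only metformin replicate 4 fell within the control range, and all 4 pairs were higher. The change was 0.70 ± 0.20 (SE; 1.63-fold), with an adjusted p of 0.0662 in limma and 0.0201 with the block. Its 2 probes gave changes of 0.70 and 0.71. The gene also passed without metformin replicate 4 (adjusted p = 0.0368), while leaving out 1 of the other arrays gave up to 0.171.

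The 2 UGT3 genes lie side by side, and the human enzymes of this subfamily use sugar donors other than glucuronate. Ugt3a2 had 8.44, 8.90, 8.97 and 8.40 log2 units in metformin replicates 1 to 4, against 7.91, 8.26, 8.32 and 8.18 in control replicates 1 to 4. The groups did not overlap, yet the change of 0.51 ± 0.17 missed the threshold (SE; limma adjusted p = 0.0994, and 0.0515 in the blocked fit). Ugt3a1 was dimmer, at 0.64 ± 0.23 (adjusted p = 0.130, 0.0785 in the blocked fit, and 0.0232 without metformin replicate 4). Its adjusted p reached 0.302 without 1 of the other arrays. The 3 UGT1 genes, Ugt1a2, Ugt1a6a and Ugt1a10, had changes of 0.47, 0.25 and 0.061. The 3 probes of Ugt1a6a differed in sign, at 0.25, 0.23 and -0.23. Genes of this locus share their last exons, so that a probe there could not tell them apart, and they are uncertain as single genes. In the Ugt2 row on chromosome 5 the direct neighbours Ugt2b34, Ugt2b1, Ugt2b35 and Ugt2b36 had changes of 0.36, -0.012, -0.37 and 0.70. The median of the 10 UGT genes was 0.31, or 0.14 without control replicate 4, and 7 were positive. In limma 0 passed, while 3 reached an unadjusted p under 0.05, as did 23.8% of all genes.

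The brightest members of the whole set were glutathione S-transferases, and none of the 4 brightest passed in either fit. Gstp1, the pi-class enzyme, averaged 13.79 ± 0.21 log2 units with metformin and 13.67 ± 0.21 in controls (SD, n = 4 each), and the 95% interval of the change ran from -0.21 to 0.46. Gsta1 averaged 13.59 ± 0.20 with metformin and 13.55 ± 0.25 in controls, with an interval from -0.31 to 0.40. Gsta1 and Gsta2 are near-identical copies, as are the Gstp genes, and are uncertain as single genes. Probes this bright may also be near saturation, which was not tested. The dimmest of the 3 Gstp1 probes, at a mean level of 9.61, had a change of -0.26 ± 0.14 (SE). The brighter Gstp1 probes had changes of 0.12 and 0.084. Gsto1, the omega-class thiol transferase, had a change of -0.098 ± 0.16, and Gstk1, the kappa-class enzyme of mitochondria and peroxisomes, one of -0.035 ± 0.13.

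Gsta3, which in mouse detoxifies aflatoxin epoxide, was bright as well, and its controls were split. It had 12.64, 12.48, 12.36 and 12.26 log2 units in metformin replicates 1 to 4, against 12.66, 11.28, 11.24 and 11.21 in control replicates 1 to 4. Control replicate 1 stood at the metformin level, while the other 3 controls were about equal. The change was 0.84 ± 0.30 (SE; limma adjusted p = 0.129, and 0.0531 with the block), or 1.19 with an adjusted p of 0.00940 without control replicate 1. Without 1 of the other arrays the adjusted p reached 0.266. The pair differences were -0.019, 1.20, 1.12 and 1.05. Its other, dimmer probe gave the same change of 0.84.

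Gstm4, a mu-class enzyme, had 7.21, 7.37, 6.99 and 6.91 log2 units in metformin replicates 1 to 4, against 7.02, 6.55, 6.35 and 5.63 in control replicates 1 to 4. Metformin replicates 3 and 4 lay below control replicate 1, so the groups overlapped. The change was 0.73 ± 0.26 (SE; limma adjusted p = 0.124, and 0.0496 with the block, or 0.0439 without control replicate 1). For Gstm4 the adjusted p reached 0.265 without 1 of the other arrays. The mu-class genes form 1 row on chromosome 3. The direct neighbours Gstm6, Gstm3, Gstm2, Gstm1 and Gstm4 had changes of 0.12, -0.14, 0.27, 0.056 and 0.73, and Gstm5, 1 gene away from Gstm6, 0.27. Of the theta-class genes, which lie close together on chromosome 10, Gstt3 had a change of -0.31 and was lower in all 4 pairs, while Gstt1 and Gstt2 had changes of 0.31 and 0.47. None of these 3 passed in either fit. The median of the 20 GST genes was 0.11, or 0.018 without metformin replicate 1, 0.0055 without control replicate 4 and 0.22 without metformin replicate 4. In limma 0 were past the threshold and 2 reached an unadjusted p under 0.05, where 23.8% of all genes did. Of the microsomal enzymes, Mgst1 averaged 12.45 ± 0.23 with metformin and 12.42 ± 0.27 in controls (SD, n = 4 each), Mgst3 had a change of 0.35 ± 0.21, and Mgst2, known for leukotriene synthesis, was dim with a change of 0.14 ± 0.17.

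The 9 carboxylesterases had a median change of 0.40 log2 units, with 8 positive. With Ces2g, whose 2 probes disagreed, taken at its dimmer probe the median was 0.19, with 7 positive. In limma 0 passed, with 4 at an unadjusted p under 0.05, and with the block 3 rose. Of all genes 51.2% were positive, 23.8% reached that p and 4.41% rose with the block. Ces1b had 9.98, 9.97, 10.11 and 9.67 log2 units in metformin replicates 1 to 4, against 9.53, 8.93, 9.58 and 9.08 in control replicates 1 to 4. The groups did not overlap. The change was 0.65 ± 0.18 (SE; 1.57-fold; limma adjusted p = 0.0566, and 0.0343 with the block, or 0.0475 without control replicate 1). Leaving out 1 of the other arrays gave adjusted p-values of up to 0.159.

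Ces1d is the mouse triacylglycerol hydrolase, which mobilises stored fat for lipoprotein assembly. It had 10.28, 9.04, 10.18 and 9.09 log2 units in metformin replicates 1 to 4, against 9.38, 8.53, 9.62 and 8.14 in control replicates 1 to 4. Replicates 1 and 3 were high and replicates 2 and 4 low in both groups, so the groups overlapped although every pair was higher, by 0.90, 0.51, 0.57 and 0.95. The change of 0.73 had an SE of 0.39 without the block and 0.13 with it (adjusted p = 0.298 and 0.0224). Ces1c, the esterase secreted into mouse plasma and the brightest of the family, averaged 11.79 ± 0.27 with metformin and 11.38 ± 0.26 in controls (SD, n = 4 each; limma adjusted p = 0.193, and 0.0657 with the block). Its pair differences, 0.48, 0.35, 0.40 and 0.39, were nearly equal. Ces1b to Ces1g follow one another on chromosome 8, and the last 3 of that row, Ces1e, Ces1f and Ces1g, had changes of 0.14, 0.18 and -0.016. Probes of these similar genes may share signal, which was not tested.

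Ces2e was dim but lay just outside the threshold. It had 5.61, 5.41, 5.55 and 5.05 log2 units in metformin replicates 1 to 4, against 5.15, 4.37, 4.63 and 4.50 in control replicates 1 to 4. Metformin replicate 4 was below control replicate 1, and all other metformin arrays were above all controls. The change was 0.74 ± 0.19 (SE; 1.67-fold; limma adjusted p = 0.05005, and 0.0262 with the block). It passed without metformin replicate 4 (0.0403) and without control replicate 1 (0.0207). Without 1 of the other arrays its adjusted p rose to as much as 0.143. Its relative Ces2g gave opposite answers with 2 probes. The brighter had 8.80, 9.24, 8.63 and 8.42 log2 units in metformin replicates 1 to 4, against 8.82, 7.77, 7.73 and 7.49 in control replicates 1 to 4, a change of 0.82 ± 0.29 (limma adjusted p = 0.119, or 0.0204 without control replicate 1). At the brighter probe the adjusted p reached 0.266 without 1 of the other arrays. The dimmer had 6.61, 6.22, 6.27 and 6.55 with metformin, against 7.10, 7.67, 7.50 and 6.95 in controls, with no overlap. Its change was -0.89 ± 0.18, with an adjusted p of 0.0254 over the 15301 probes. No direction is given for Ces2g as a gene.

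The monooxygenases were dim to moderate and differed among themselves. Fmo1 had 7.93, 6.96, 6.88 and 7.20 log2 units in metformin replicates 1 to 4, against 7.41, 6.15, 6.02 and 6.19 in control replicates 1 to 4. Control replicate 1 lay above 3 of the metformin arrays, and each pair was higher with metformin. The change was 0.80 ± 0.33 (SE; 1.74-fold; limma adjusted p = 0.180, and 0.0169 with the block, or 0.0329 without control replicate 1). For Fmo1 the adjusted p reached 0.345 without 1 of the other arrays. Fmo4 and Fmo2, its neighbours on either side, had changes of 0.38 and -0.35 and did not pass. Fmo5 had a change of -0.26 ± 0.33 at its brighter probe. Its dimmer probe had 5.11, 4.47, 4.65 and 4.55 log2 units in metformin replicates 1 to 4, against 5.78, 5.81, 6.34 and 5.64 in control replicates 1 to 4, and fell by 1.19 ± 0.19 (adjusted p = 0.0142 over the probes). The sequences that the 2 probes read were not used here.

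The 2 epoxide hydrolases had changes of opposite sign, and neither passed. Ephx2, the soluble enzyme that acts on epoxides of fatty acids, had 8.54, 9.10, 8.85 and 8.29 log2 units in metformin replicates 1 to 4, against 8.24, 7.92, 8.31 and 7.78 in control replicates 1 to 4. The groups overlapped in 1 array, and the change was 0.63 ± 0.20 (SE; limma adjusted p = 0.0855, and 0.0568 with the block). Ephx1, the microsomal enzyme that acts on epoxides of drugs, had 11.05, 10.71, 10.34 and 9.88 with metformin, against 10.98, 11.04, 10.95 and 10.63 in controls. Its change was -0.41 ± 0.23 (adjusted p = 0.323).

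**Figure D3:**
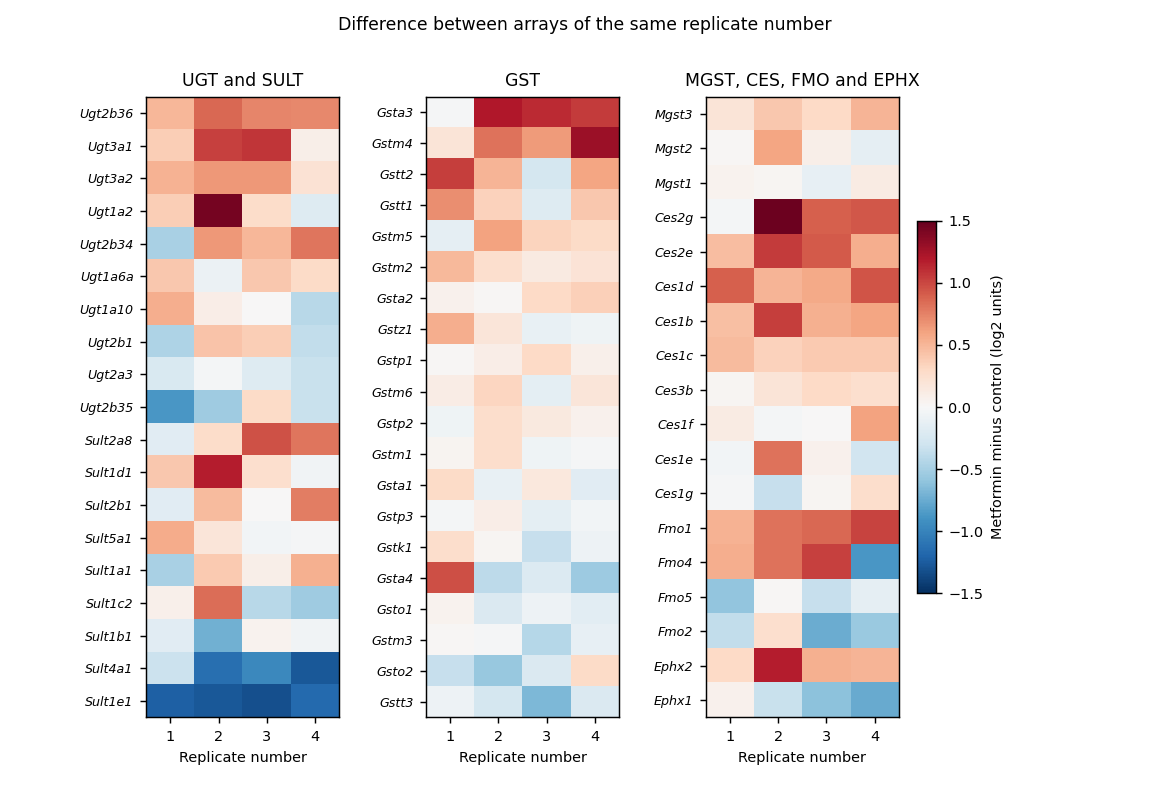
Metformin minus control in log2 units between arrays of the same replicate number, with 1 row per gene and 1 column per number, red for higher and blue for lower with metformin. Sult1e1 is dark blue in all 4 columns, the 6 genes that passed with the block are red in all 4, and Gsta3 and Ces2g are red in all but replicate 1.

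Arrays of the same number shared much of their spread. The mean deviation of the 57 genes from their own mean was 0.26, 0.14, 0.12 and -0.19 log2 units in metformin replicates 1 to 4, against 0.15, -0.16, -0.016 and -0.30 in control replicates 1 to 4. Replicate 4 was the lowest and replicate 1 the highest in both groups. For all genes these deviations stayed between -0.015 and 0.018. The arrays have nearly equal medians, which may also keep the mean over all genes nearly constant, but this was not tested. How far other sets of this size usually deviate was not tested. For the carboxylesterases they were 0.33, 0.26, 0.42 and -0.16 with metformin, against 0.071, -0.30, 0.0080 and -0.63 in controls, so the groups overlapped while each pair was higher with metformin, also without Ces2g. For the 9 sulfotransferases 3 of the 4 pairs were lower, with Sult1e1 and Sult4a1 setting that direction. Over the other 7 all 4 pairs were higher, though in replicate 1 only by 0.080 against 0.072. Of the 7, 5 had positive changes, as did 51.2% of all genes. Taking out the genes that fell in itself moves this mean up.

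**Figure D4:**
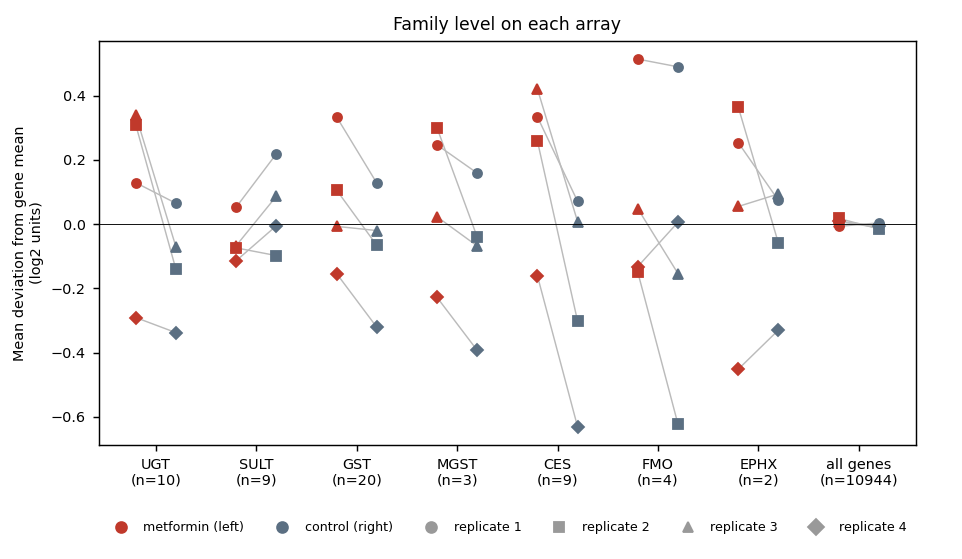
Mean deviation of each family's genes from their mean over the 8 arrays, in log2 units, with metformin arrays left in red, control arrays right in grey-blue and lines joining arrays of 1 replicate number. All 4 carboxylesterase lines run down to the control, from metformin values of -0.16 to 0.42. The points for all 10944 genes stay near 0, and the arrays have nearly equal medians.

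Genes that supply, regulate or accompany the enzymes were described from lists. For these counts, 3.44% of all genes fell and 3.32% rose in limma, and 23.8% reached an unadjusted p under 0.05. Of 8 measured genes of the PAPS cycle and sulfate handling 2 fell, Bpnt1, which removes the spent sulfate donor (-0.59 ± 0.13; limma adjusted p = 0.0320), and, at a dim probe, the sulfate transporter Slc26a1 (-0.81 ± 0.20; 0.0452). The call of Bpnt1 was lost with the mean of its 4 probes (adjusted p = 0.0931) and without any 1 array but metformin replicate 1. Slc26a1 passed without control replicate 1 or control replicate 4 and in no other fit without 1 array, and its call was lost with an offset of 16 on the linear scale (-0.56, 0.0541). Of 11 glutathione supply genes 1 fell, Gclc, the catalytic subunit of the rate-limiting enzyme. It had 8.54, 7.62, 8.04 and 7.73 log2 units in metformin replicates 1 to 4, against 9.10, 9.24, 8.47 and 8.81 in control replicates 1 to 4, a change of -0.92 ± 0.23 (adjusted p = 0.0452). It passed without metformin replicate 1 and in no other fit without 1 array. With the block 1 gene of this list rose, Cth, which makes cysteine (0.62; adjusted p = 0.235, and 0.0483 with the block). Of 3 genes of the glucuronate donor 0 passed in limma, with 1 at an unadjusted p under 0.05. There Gusb, the glucuronidase that reverses conjugation, had a change of -0.33 ± 0.12 and Ugp2, which makes UDP-glucose, one of 0.52 ± 0.29.

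Of 19 regulators 1 rose and 1 fell. Nr1i2, the pregnane X receptor that induces many drug-metabolising genes, had 6.86, 7.11, 7.06 and 6.94 log2 units in metformin replicates 1 to 4, against 6.43, 5.66, 6.07 and 6.04 in control replicates 1 to 4. The groups did not overlap, and the change was 0.94 ± 0.16 (SE; 1.92-fold; limma adjusted p = 0.0146), with the call lost without metformin replicate 2 (0.0512) or metformin replicate 3 (0.0520). Nfe2l2, which encodes NRF2, had 8.72, 8.14, 8.10 and 8.06 with metformin, against 8.60, 9.20, 9.14 and 9.16 in controls. Replicate 1 did not share the difference of the other 3 pairs, and the change was -0.77 ± 0.19 (adjusted p = 0.0431). Its call was lost with the block (0.0676), with the mean of its probes (-0.32, 0.150) and without any 1 array but metformin replicate 1 or control replicate 1. Keap1, the inhibitor of NRF2 (-0.14 ± 0.14), Hnf4a (0.11 ± 0.12) and Ppara (0.11 ± 0.14) did not pass. Of 11 other NRF2 target enzymes 0 passed in limma, with 1 at an unadjusted p under 0.05, Taldo1, transaldolase, at 0.58 ± 0.17 (adjusted p = 0.0732, or 0.0329 with the block). Aox1, aldehyde oxidase, had a change of -0.31 ± 0.21.

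Among 16 other conjugation enzymes 1 fell, Nnmt, the nicotinamide methyltransferase. It had 10.34, 10.23, 9.71 and 10.47 log2 units in metformin replicates 1 to 4, against 11.27, 11.20, 11.28 and 11.13 in control replicates 1 to 4, a change of -1.03 ± 0.16 (limma adjusted p = 0.0135). Of 9 efflux transporters 1 fell, Abcb1b, a drug efflux pump of the P-glycoprotein type, by 0.75 ± 0.12 (adjusted p = 0.0140). Both passed in all 8 fits without 1 array. Of 3 redox partners of oxygenases 1 fell, Cyb5b, the cytochrome b5 of the outer mitochondrial membrane, by 0.59 ± 0.11 (adjusted p = 0.0217), with the call lost without metformin replicate 2 (0.0521), metformin replicate 3 (0.0730), control replicate 2 (0.0530) or control replicate 3 (0.0614). Of 7 other hydrolases 0 passed in limma, with 1 at an unadjusted p under 0.05. The smallest p there were those of the cholesterol ester hydrolase Nceh1 (0.45 ± 0.15) and the paraoxonase Pon2 (-0.27 ± 0.12).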

How the data were processed

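RNA was isolated with TRIzol and biotin-labelled, per the labels' protocols. The authors deposited log2 intensities, 1 column per array, for 16304 probes, between 4.16 and 14.4. Versions named in the submitters' processing notes, without a stated role, are limma 3.26.9 and R 3.2.3. Background correction, normalization and probe filter are not given in the sources used here, and the values were used as they stand. Detection p-values were left out. With 4 arrays a group, the number of arrays limits the precision.

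Probe names came from the platform annotation (1003 are unnamed here), with symbols updated through Entrez numbers in RefSeq GRCm38.p6. The brightest probe over the 8 arrays stood for each gene. Metformin minus control was fitted with limma 3.58.1 (lmFit, eBayes) in R 4.3.3, and the code was tested on simulated data. A value after ± is the SE of the log2 change unless marked SD, and adjusted p is limma's unless stated. The labels do not say what the replicate number marks. The mean correlation of same-numbered arrays, 0.245, was the highest of the 24 possible pairings.

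Members, lists and tests were chosen with earlier results of these data known. Named were members past the threshold, the 2 with the smallest p and the brightest of each family, genes whose probes moved in opposite directions by over 0.3, up to 4 past the threshold in each context list (or the 2 with the smallest p), and 7 regulators, of which Nr1i3 and Ahr are not analysed here. Other members, the dimmer probes and all markers were named after their values were seen. Alternatives were the mean of all probes, each probe alone, quantile normalization, an offset of 16, 2 filters on dim genes, eBayes with trend, array weights, the block, an adjusted p under 0.10 and leaving out each array.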

Additional observations from a re-analysis of the deposited data

Results flagged for a closer look

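In 10 of the 114 groups of 4 values, 1 for each of 10 genes, the highest or lowest array stood far from the other 3. The measure was its gap to the nearest value over the range of the group, past the 95% limit of Dixon's test. Chance flags about 1 in 20 groups of independent, normally distributed values. Several flags fell on control replicate 1, and the share over all genes was not counted, so no excess is read from the 10. The value of control replicate 1 was high for Gsta3 (12.66, the others 11.21 to 11.28 log2 units), Fmo1 (7.41, the others 6.02 to 6.19), Ces3b (7.63, the others 7.31 to 7.33) and Ugt3a1 (5.76, the others 5.26 to 5.33), and low for Gstz1 (8.56, the others 8.95 to 9.0). Control replicate 2 was high for Gsta4 (9.73, the others 9.34 to 9.40). Control replicate 4 was low for Ces1g (4.59, the others 5.64 to 5.84) and Gstt1 (7.85, the others 8.64 to 8.75). Metformin replicate 1 was high for Gstt2 (7.77, the others 6.73 to 6.88), and metformin replicate 4 for Gsto2 (6.27, the others 5.18 to 5.26). Control replicate 1 had an array weight of 0.665, and the weights of the 8 arrays ran from 0.631 to 1.59.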

How the results depend on the processing

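The signs of Sult1e1 and Sult4a1 held under every alternative in which they were tested, and both passed with the mean of all probes, each probe alone, quantile normalization, the offset of 16, the lowest 25% of genes left out, eBayes with trend and robust prior, array weights and the block. With the lower 50% of genes left out 0 members and 0 SULT genes were lower, because that filter removes both. Over the fits without 1 array the members numbered 0 to 2 lower and 0 to 6 higher. They were 0 lower without metformin replicate 2 or 3 or control replicate 2 or 3, and 1 without metformin replicate 4 or control replicate 4, all of them SULT genes (0 to 2). Higher members were 6 without control replicate 1 (2 GST, 3 CES and 1 FMO, with Ces2g counted at its brighter probe) and 3 without metformin replicate 4 (2 UGT and 1 CES), so that UGT ran from 0 to 2, GST from 0 to 2, CES from 0 to 3 and FMO from 0 to 1.

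In the main fit, without the block, 0 members were higher. The replicate block gave 6 (1 UGT, 1 GST, 3 CES and 1 FMO), and changed no call of the 2 lower members. Array weights gave 5 higher (1 UGT, 1 GST and 3 CES, Ces2g again at its brighter probe), an adjusted p under 0.10 also 5 (2 UGT, 2 CES and 1 EPHX), the lower 50% filter 3 (1 UGT, 1 CES and 1 EPHX), the 25% filter 2 (2 CES), eBayes with trend 2 (1 UGT and 1 CES), the offset 1 (1 CES) and the mean of all probes 1 (1 CES). With each probe on its own 4 members had a lower probe, adding 1 CES and 1 FMO gene. Over the alternatives run, the median change ran from 0.10 to 0.23 for the members, 0.14 to 0.39 for UGT, 0.062 to 0.29 for SULT, 0.0055 to 0.22 for GST, 0.040 to 0.26 for MGST, 0.19 to 0.65 for CES, 0.0075 to 0.28 for EPHX and -0.26 to 0.38 for FMO, which has no settled sign. The lowest CES value, with Ces2g at its dimmer probe, was added after seeing the data. Over all genes 363 were higher and 377 lower, against 606 and 583 with array weights, 713 and 680 at an adjusted p under 0.10, and 70 to 401 and 100 to 393 without 1 array. Both sulfotransferase calls rest on dim probes.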
